A study of Arabidopsis thaliana with 6 samples.

Results

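Transcripts of 35S::RSL4 roots were compared with those of Col-0 roots on 4 of the 6 arrays of the series, the 2 arrays titled 35S::RSL4 and the 2 titled Col-0, chosen by title. The question was which root transcripts differ when RSL4 is driven by the 35S promoter. RSL4 is a basic helix-loop-helix (bHLH) transcription factor of Arabidopsis thaliana, and 35S is a promoter of cauliflower mosaic virus that is active in most plant tissues. The other 2 arrays held roots of the rsl4-1 mutant, whose values are given beside some genes, and both 35S::RSL4 and rsl4-1 are compared with the same Col-0 arrays. All 3 genotypes have the Col-0 background. Each sample was root tissue of plants at growth stage 3.2, grown upright in continuous light at 25 °C on MS plates of pH 5.7 with 1% sucrose, after 4 days of stratification. The genetic variation entry calls the 35S::RSL4 samples a knock-out, as it does rsl4-1, so genotypes were taken from titles. The labels do not say how many transgenic lines or plants were used, or whether the 2 samples of a genotype were grown separately, so the spread behind the p-values is that between these samples, and it may be technical.

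Root hairs are tubular outgrowths of epidermal cells that take up water and nutrients and grow at the tip. RSL4 is known to set how long they grow: hairs are short where it is lost and long where it is overproduced. A growing hair secretes wall material, enzymes and membrane through vesicles, and its known RSL4-dependent genes include expansins, extensins and class III peroxidases. The accounts below go beyond those wall genes and peroxidases, to what else rose and fell.

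Of 14170 probe sets above the filter on dim values, 480 were higher in 35S::RSL4 (3.39%) and 408 lower (2.88%) at an adjusted p under 0.05 (limma, Benjamini-Hochberg). Among the 7669 tested probe sets with 1 gene, 246 were higher (3.21%) and 185 lower (2.41%), and these shares are the background for every gene list below. Of the called, 12 higher probe sets passed the filter only through the 35S::RSL4 arrays and 18 lower ones only through the Col-0 arrays, so they had to differ, and no p is given where such a gene is named. The exact permutation test of 2 against 2 arrays cannot go below 0.333, so calls rest on the fit over all probe sets. Both arrays of one genotype lay beyond both of the other for every called probe set, which was also so for 7565 of all 14170 tested. Most changes were small: the median fold was 1.65 among the higher and 1.69 among the lower, and 100 and 97 reached 2-fold. The called higher probe sets had a median signal of 222 in 35S::RSL4 and 125 in Col-0, and the called lower ones 56.2 in 35S::RSL4 and 100.2 in Col-0. The median log2 change of all tested probe sets was -0.065. Centring each array on its median moves the comparison up by 0.074 (log2), and then 718 were higher and 261 lower, so that 73.3% of calls were higher against 54.1%. The calls numbered 167 higher and 167 lower without 35S::RSL4 replicate 2, 126 and 86 without Col-0 replicate 1, 226 and 144 without Col-0 replicate 2, and the lower calls 262 without 35S::RSL4 replicate 1. With no filter 230 were higher and 174 lower.

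**Figure D1:**
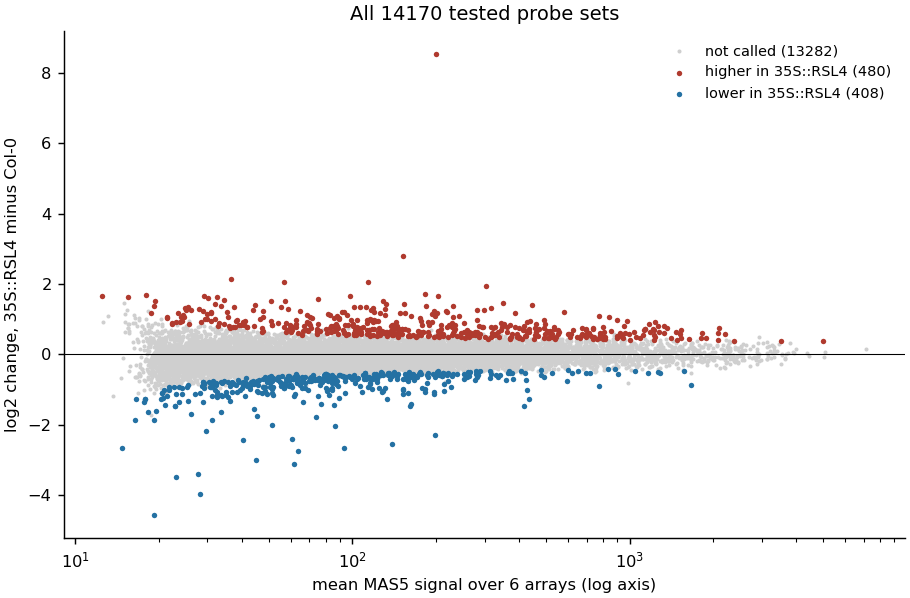
Each point is 1 of the 14170 tested probe sets, with its mean MAS5 signal over all 6 arrays on a log axis and its log2 change, 35S::RSL4 minus Col-0, on the y axis. Red points are the 480 called higher in 35S::RSL4, blue points the 408 called lower and grey points were not called; AT2G13870 is the red point at the top, with a log2 change of 8.53 against a signal near 0 in Col-0.

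**Figure D2:**
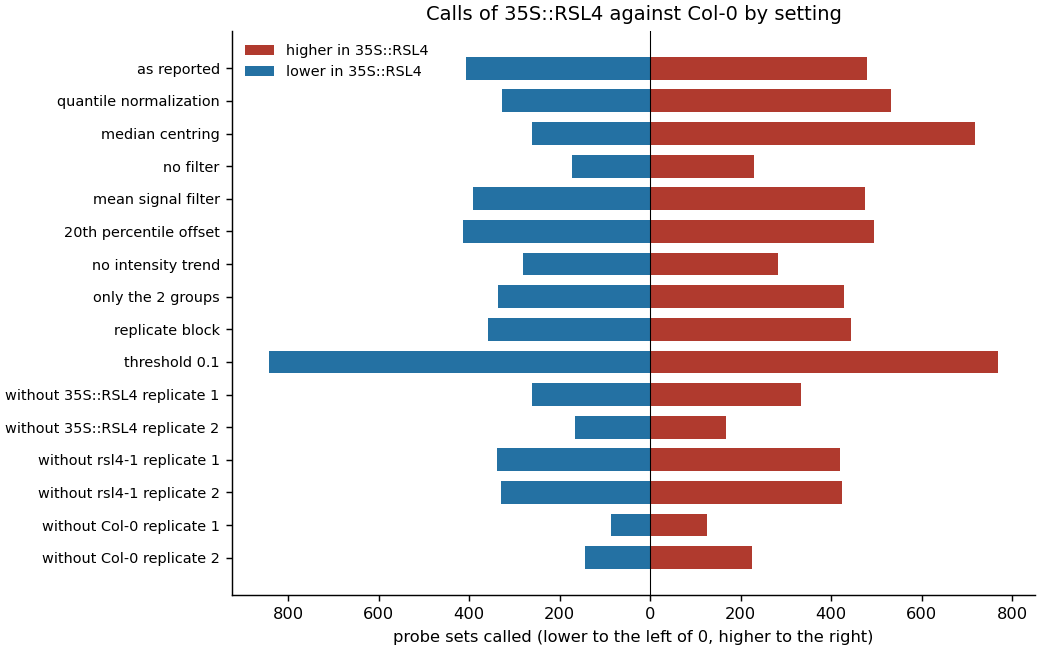
Bars give the number of probe sets called higher (red, to the right of 0) and lower (blue, to the left of 0) in 35S::RSL4 as reported and under each alternative setting. Without Col-0 replicate 1 the calls were fewest, with 126 higher and 86 lower, and median centring gave the most unequal split, with 718 higher and 261 lower.

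No probe set was matched to RSL4, so the labels could not be checked against its own transcript. EXPA7, an expansin gene expressed in root hair cells, had signals of 275 and 301 in 35S::RSL4 and 72.8 and 59.8 in rsl4-1, against 99.4 and 114 in Col-0, and was higher in 35S::RSL4 than in Col-0 (log2 change 1.44, adjusted p = 4.3e-05). Root cell type markers could be checked only in part, because no list of hair cell, non-hair, endodermis, xylem, phloem or meristem markers had a tested probe set matched to its genes. AT4G30450, the 1 tested root cap marker, had signals of 519 and 615 in 35S::RSL4 roots, against 438 and 420.0 in Col-0 roots (log2 change 0.40, adjusted p = 0.076). In whole-root RNA, fewer cells of a type and less RNA per cell cannot be told apart. All 4 tested reference genes were not called, with log2 changes from -0.12 for AT4G34270 to 0.058 for GAPC2.

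The largest rises beyond wall genes and peroxidases were spread over membrane, lipid and secreted proteins, and several of these genes had signals near background in Col-0. The largest of all was AT2G13870, annotated as a pseudogene, with signals of 643 and 557 in 35S::RSL4 roots, against 0.597 and 4.36 in Col-0 roots, which is at least 26.8-fold higher. It passed the filter only through the 35S::RSL4 arrays and was as dim in rsl4-1, at 0.78 and 0.489, and this kind of probe set may also pick up other, similar transcripts. AT1G34330, a transcribed pseudogene, had signals of 62.9 and 69.6 in 35S::RSL4 roots, against 19.5 and 23 in Col-0 roots and was 3.13-fold higher (log2 change 1.64, SE 0.25, adjusted p = 0.00079). The 30 largest rises among probe sets with 1 gene outside the wall and peroxidase lists ran down to AT1G52060 at 2.12-fold higher. Of the 100 higher and 97 lower probe sets that reached 2-fold, 47 and 41 had 1 gene. The others could not be named. Of the 431 called probe sets with 1 gene, 350 have only a locus code as a name. AT1G34330 was called under every setting tried, whereas AT2G13870 fell under the filter, and so was not tested, without 35S::RSL4 replicate 1 or 2 and with a filter on mean signal.

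**Figure D3:**
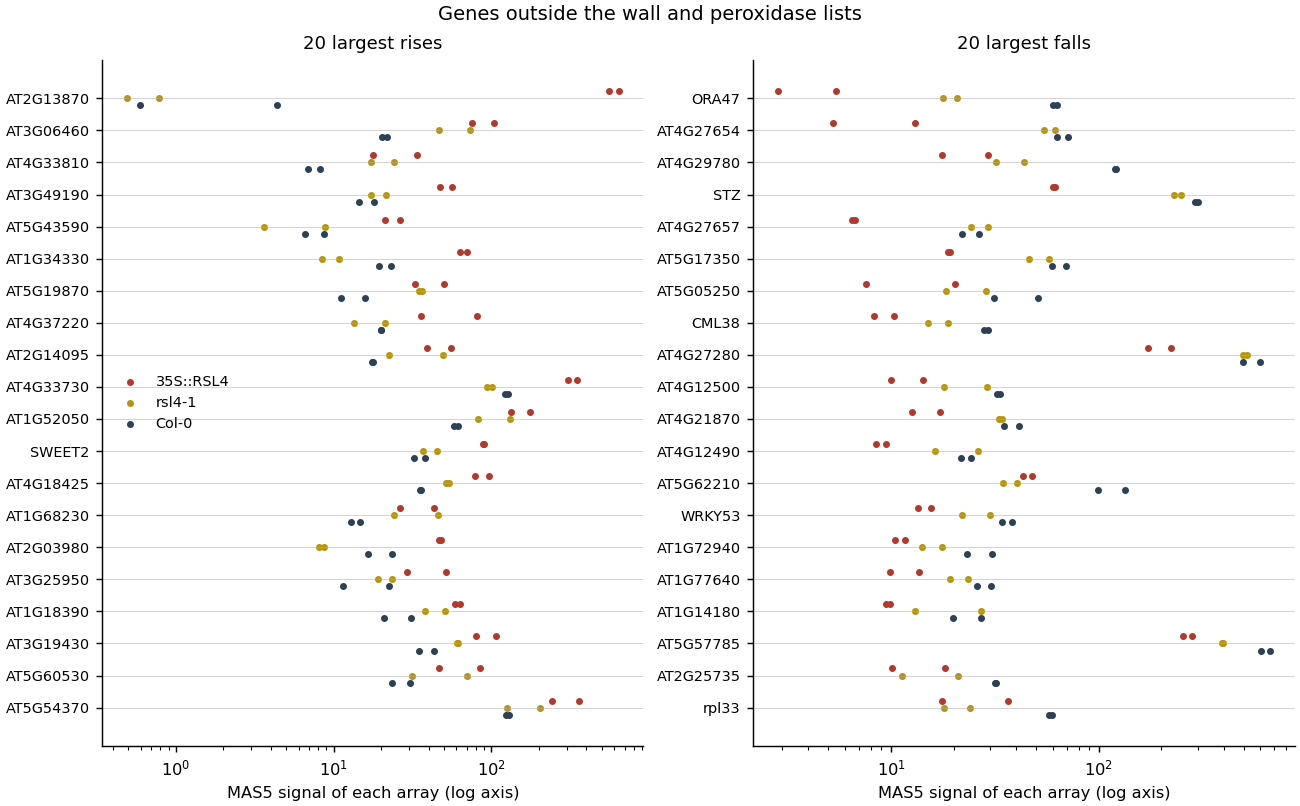
MAS5 signal of every array, on log axes, for the 20 largest rises (left) and the 20 largest falls (right) outside the wall and peroxidase lists, with 35S::RSL4 in red above rsl4-1 in yellow and Col-0 in dark grey. The genes shown were chosen to have both 35S::RSL4 arrays beyond both Col-0 arrays. Some, such as AT2G13870 and ORA47, passed the filter only through the genotype in which they were high. In AT4G33730 the rsl4-1 arrays lie below those of Col-0, and in ORA47 they lie between the other genotypes.

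Some of the strongest rises were genes of fatty acids, waxes and membrane lipids. Of those named here, AT3G49190 and AT5G43590 had to be higher through the filter. AT3G06460, of the ELO family of fatty acid elongases, had signals of 75.8 and 103 in 35S::RSL4 roots, against 21.9 and 20.2 in Col-0 roots, at least 3.97-fold higher (adjusted p = 4.3e-05). AT3G49190, of the wax ester synthase family, had signals of 47.2 and 56.2 in 35S::RSL4 roots, against 18 and 14.5 in Col-0 roots, at least 2.31-fold higher. The patatin-like lipase gene AT5G43590 had signals of 21 and 26.5 in 35S::RSL4 roots, against 8.66 and 6.55 in Col-0 roots, at least 1.06-fold higher. In AT3G06460 both 35S::RSL4 arrays lay above both Col-0 arrays, as in every called higher probe set. In rsl4-1 AT3G06460 stood at 73.2 and 46.5 and AT3G49190 at 21.5 and 17.3. The list of these enzymes and most other lists of gene families below were drawn up after values of some of their members were seen, so their counts are descriptions. Of 828 probe sets matched to lists, 520 passed the filter, and counts are over those. AT3G49190 and AT5G43590 passed the filter only through the 35S::RSL4 arrays and were not tested without either of these. Of the other 5 tested elongases and wax ester synthases AT3G06460 rose and 4 did not pass, with a median log2 change of 0.40. AT2G03980, of the GDSL lipase family, had signals of 47.7 and 46.8 in 35S::RSL4 roots, against 16.5 and 23.4 in Col-0 roots and was 2.4-fold higher (log2 change 1.26, SE 0.27, adjusted p = 0.011). Calls ended without 35S::RSL4 replicate 1 for AT2G03980 (adjusted p = 0.071), without 35S::RSL4 replicate 2 for AT2G03980 (adjusted p = 0.084) and without Col-0 replicate 1 for AT2G03980 (adjusted p = 0.16). Calls also ended with no filter for AT2G03980 (adjusted p = 0.068) and AT5G43590. AT5G43590 lost its call too when either Col-0 array was left out.

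Several genes of small secreted proteins rose. CAP proteins, the family of the defence marker PR1, are secreted and cysteine-rich, and 5 of the 10 tested rose while 5 did not pass (median log2 change 0.76, against -0.065 over all tested probe sets). Over the other settings 3 to 6 of the 10 were called higher. AT4G33730 had signals of 307 and 350.1 in 35S::RSL4 roots, against 128 and 122 in Col-0 roots, 2.62-fold higher (log2 change 1.39, SE 0.14, adjusted p = 2.9e-05). AT4G25790 had signals of 385 and 443 in 35S::RSL4 roots, against 207 and 189.7 in Col-0 roots, 2.08-fold higher (log2 change 1.06, SE 0.14, adjusted p = 0.00027). Both were lower in rsl4-1 than on either Col-0 array, with 101 and 94.1 for AT4G33730 and 82.6 and 78.7 for AT4G25790. AT4G30320 also was highest in 35S::RSL4 and lowest in rsl4-1, with signals of 169 and 268 in 35S::RSL4 and 40.5 and 23.9 in rsl4-1, against 107 and 107 in Col-0 (adjusted p = 0.018 against Col-0). AT4G07820 had another order, with 557 and 504 in 35S::RSL4 and 753 and 594 in rsl4-1, against 288 and 288 in Col-0, and passed against Col-0 (log2 change 0.88, adjusted p = 0.0011) but did not pass between 35S::RSL4 and rsl4-1 (35S::RSL4 minus rsl4-1: log2 change -0.34, adjusted p = 0.18). AT1G50060 was at least 2.17-fold higher (log2 change 1.19, adjusted p = 0.016), and AT4G33720 was among those that did not pass (log2 change -0.62, adjusted p = 0.11). In this group calls ended without 35S::RSL4 replicate 2 for AT4G30320 and AT1G50060 (adjusted p 0.18 to 0.21), without Col-0 replicate 1 for AT4G30320 and AT1G50060 (adjusted p 0.096 to 0.12) and without Col-0 replicate 2 for AT4G30320 and AT1G50060 (adjusted p 0.082 to 0.083). Calls were also lost with no filter for AT4G30320 and AT1G50060 and with no intensity trend for AT4G30320 (adjusted p 0.074 to 0.087).

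**Figure D4:**
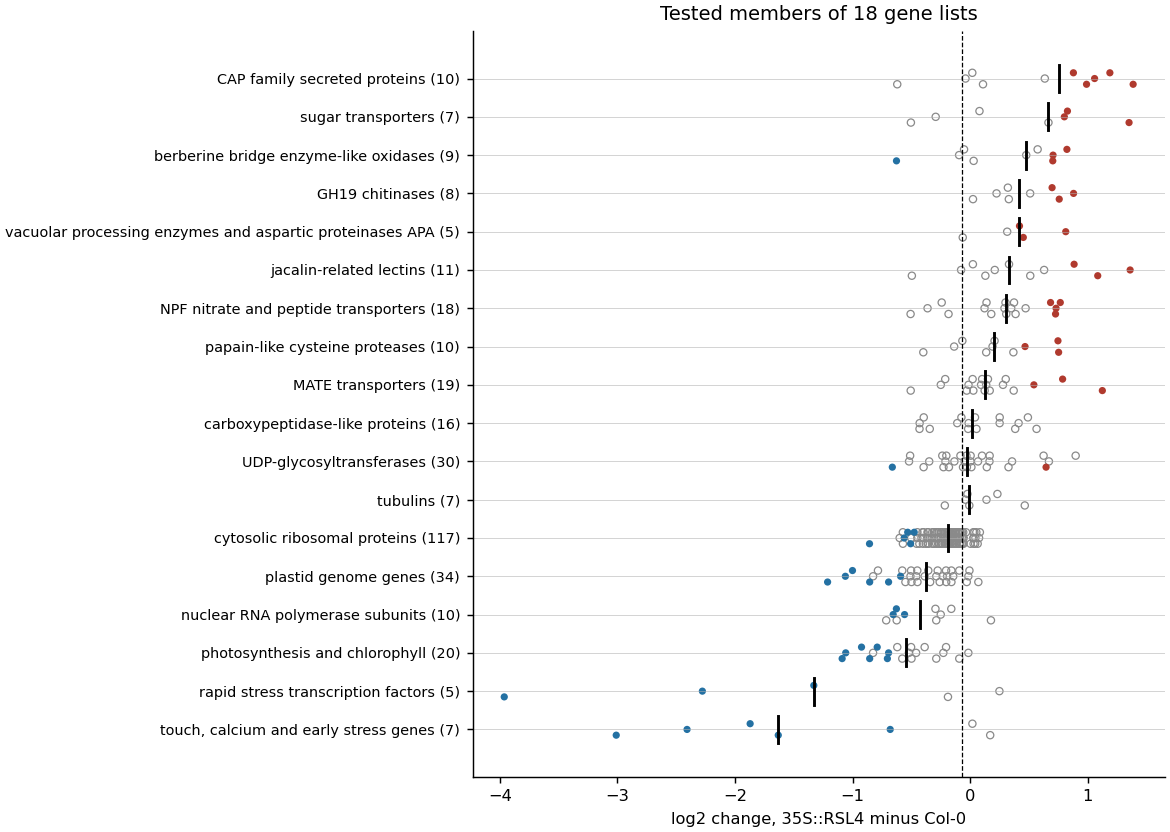
Log2 change, 35S::RSL4 minus Col-0, of every tested member of 18 gene lists (number tested in brackets). Red points were called higher, blue points lower and open grey points were not called, the black bars are list medians and the dashed line is the median of all 14170 tested probe sets, -0.065; medians run from 0.76 for CAP proteins to -1.63 for touch, calcium and early stress genes (-1.28 without CML38). AT4G29780, AT4G27654, AT4G27657 and CML38 were put in the touch, calcium and early stress list because these arrays showed them low, so its median follows from that choice. ORA47 and CML38 are drawn as called although they passed the filter only through the genotype in which they were high.

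Jacalin-related lectins bind sugars, and 3 of the 11 tested rose, all at adjoining loci on chromosome 1 (AT1G52050, AT1G52060 and AT1G52070). AT1G52050 had signals of 134 and 175 in 35S::RSL4 roots, against 61.5 and 57.6 in Col-0 roots, 2.57-fold higher (log2 change 1.36, SE 0.20, adjusted p = 0.00065). AT1G52060 was 2.12-fold higher and AT1G52070 1.85-fold higher (adjusted p = 0.0019 and 0.02). The lectins JAL33 and JAL34 did not pass, with log2 changes of 0.33 and 0.21. Chitinases of glycosyl hydrolase family 19, which cut chitin of fungal walls, included 3 of 8 that rose, and the other 5 also had log2 changes above 0 (median 0.42). AT2G43610 had signals of 496 and 640.0 in 35S::RSL4 roots, against 362 and 306 in Col-0 roots, 1.69-fold higher (adjusted p = 0.0047). AT1G02360 had 528 and 541 in 35S::RSL4, against 342 and 317 in Col-0, 1.62-fold higher (adjusted p = 0.0092). AT4G01700 had 65.4 and 83.5 in 35S::RSL4, against 41.7 and 38.7 in Col-0, 1.84-fold higher (adjusted p = 0.01). In each of the 3 genes both 35S::RSL4 arrays were above both Col-0 arrays. Of 9 tested proteins of the major latex family 2 rose, AT1G70880 (log2 change 0.79, adjusted p = 0.0026) and AT1G14960, whose signals were 1728 and 1619 in 35S::RSL4 roots, against 972 and 1004 in Col-0 roots (log2 change 0.76, adjusted p = 0.0017). These calls ended without 35S::RSL4 replicate 2 for AT1G52070, AT2G43610, AT1G02360 and AT4G01700 (adjusted p 0.071 to 0.21), without Col-0 replicate 1 for AT1G52070, AT1G02360 and AT4G01700 (adjusted p 0.059 to 0.15) and without Col-0 replicate 2 for AT1G52070, AT2G43610, AT1G02360 and AT4G01700 (adjusted p 0.072 to 0.082). Other settings ended calls too, with no intensity trend for AT1G52070 and AT1G02360 and with no filter for AT1G52070 (adjusted p 0.055 to 0.092).

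Proteases of the vacuole and the secretory path rose by modest folds. Of 10 tested papain-like cysteine proteases 3 rose, AT3G45310, AT3G19390 and AT4G16190, and of 5 tested vacuolar processing enzymes and aspartic proteinases 3 rose, AT4G04460, APA1 and GAMMA-VPE. AT3G45310 had signals of 547 and 639.6 in 35S::RSL4 roots, against 349 and 355 in Col-0 roots, 1.68-fold higher (log2 change 0.75, SE 0.13, adjusted p = 0.0022). AT3G19390 had signals of 912 and 1008 in 35S::RSL4 roots, against 537 and 602 in Col-0 roots, 1.69-fold higher (log2 change 0.75, SE 0.13, adjusted p = 0.0023). GAMMA-VPE, a vacuolar processing enzyme that matures other vacuolar proteins, had signals of 965 and 988 in 35S::RSL4 roots, against 685 and 743 in Col-0 roots, 1.37-fold higher (log2 change 0.45, SE 0.13, adjusted p = 0.049). These arrays did not overlap, but the change is close to the threshold. APA1, an aspartic proteinase, had 2271 and 2468 in 35S::RSL4 roots, against 1888 and 1657 in Col-0 roots (log2 change 0.42, SE 0.11, adjusted p = 0.039). The subtilases ATSBT5.2 and SBT4.12 rose too, 2 of 5 tested, with log2 changes of 0.71 and 0.57 (adjusted p = 0.012 and 0.02). Inhibitors of proteases moved in both directions, with 3 of 5 higher and 1 lower. AT2G38870, an inhibitor of the potato inhibitor I type, had signals of 359.7 and 257 in 35S::RSL4 roots, against 172 and 149 in Col-0 roots (log2 change 0.92, adjusted p = 0.0036). AT5G05110, a cystatin that inhibits papain-like proteases, rose (log2 change 0.88, adjusted p = 0.0026), whereas CYS1, another cystatin, fell (log2 change -0.52, adjusted p = 0.035). Several of these calls ended without 35S::RSL4 replicate 1 for AT4G16190, APA1, GAMMA-VPE and CYS1 (adjusted p 0.073 to 0.2), without 35S::RSL4 replicate 2 for AT4G16190, AT4G04460, APA1, GAMMA-VPE, ATSBT5.2 and SBT4.12 (adjusted p 0.059 to 0.19), without rsl4-1 replicate 1 for APA1 (adjusted p = 0.058), without rsl4-1 replicate 2 for APA1 (adjusted p = 0.058), without Col-0 replicate 1 for AT3G19390, AT4G16190, APA1, GAMMA-VPE, ATSBT5.2, SBT4.12, AT5G05110 and CYS1 (adjusted p 0.052 to 0.3) and without Col-0 replicate 2 for AT4G16190, APA1, GAMMA-VPE, AT2G38870 and CYS1 (adjusted p 0.051 to 0.24). Calls also ended with no filter for AT4G16190, APA1, GAMMA-VPE, SBT4.12 and CYS1, with no intensity trend for AT4G16190, APA1, GAMMA-VPE, SBT4.12 and CYS1, with median centring for CYS1, with quantile normalization for GAMMA-VPE, with the replicate block for APA1 and GAMMA-VPE and with only the compared genotypes for APA1 (adjusted p 0.054 to 0.18).

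Carriers of sugars, nitrate and organic compounds were also among the rising genes. SWEET proteins let sugars cross membranes down their gradient, and 3 of the 7 tested rose. SWEET2, known as a vacuolar sugar carrier of root cells, had signals of 88.9 and 90.1 in 35S::RSL4 roots, against 32.3 and 38 in Col-0 roots, 2.55-fold higher (log2 change 1.35, SE 0.18, adjusted p = 0.00032). SWEET16, also of the vacuole, had 249 and 256 in 35S::RSL4, against 129 and 157 in Col-0 (log2 change 0.83, adjusted p = 0.014). SWEET11, of the plasma membrane, had 317 and 283 in 35S::RSL4, against 191 and 155 in Col-0 (log2 change 0.80, adjusted p = 0.0046). SWEET2 was higher in 35S::RSL4 than in rsl4-1 as well (35S::RSL4 minus rsl4-1: log2 change 1.13, adjusted p = 0.00087), whereas SWEET11 stood at 429 and 346 in rsl4-1 and did not pass against it (log2 change -0.36, adjusted p = 0.2). The NPF family carries nitrate, peptides and hormones, and 4 of 18 tested rose and 14 did not pass (median log2 change 0.30). AT3G45710 had signals of 1007 and 928 in 35S::RSL4 roots, against 583 and 553 in Col-0 roots, 1.7-fold higher (log2 change 0.77, SE 0.12, adjusted p = 0.0011), and its neighbour AT3G45700 was 1.66-fold higher (adjusted p = 0.012). AT2G26690, also known as NPF6.2, was 1.61-fold higher (adjusted p = 0.0092). MATE carriers export organic acids and toxins, and 3 of 19 rose, AT1G66760, AT1G11670 and AT5G65380. AT1G66760 had 101 and 169.9 in 35S::RSL4, against 49.5 and 73 in Col-0 (log2 change 1.13, adjusted p = 0.0077), and AT1G11670 had 438 and 389 in 35S::RSL4, against 249 and 229 in Col-0 (log2 change 0.79, adjusted p = 0.0018). Some of these calls were lost without 35S::RSL4 replicate 1 for SWEET16 and AT5G65380 (adjusted p 0.072 to 0.14), without 35S::RSL4 replicate 2 for SWEET16, AT3G45700, AT2G26690 and AT1G66760 (adjusted p 0.082 to 0.13), without Col-0 replicate 1 for SWEET16, AT3G45700, AT2G26690, AT1G66760 and AT5G65380 (adjusted p 0.059 to 0.22) and without Col-0 replicate 2 for SWEET11, AT3G45700, AT2G26690 and AT5G65380 (adjusted p 0.077 to 0.12). Calls were also lost with no filter for SWEET16, AT1G66760 and AT5G65380 and with no intensity trend for SWEET16 and AT5G65380 (adjusted p 0.0502 to 0.078).

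Enzymes of specialised metabolism rose in a few families. Both tested feruloyl-CoA hydroxylases, AT3G13610 (F6'H1) and AT1G55290 (F6'H2), which make the precursor of the coumarin scopoletin that roots secrete, were higher. AT3G13610 had signals of 698 and 651 in 35S::RSL4 roots, against 375 and 436 in Col-0 roots (log2 change 0.74, SE 0.14, adjusted p = 0.0046), and AT1G55290 had 61.3 and 92.1 in 35S::RSL4, against 43.3 and 31.7 in Col-0 (log2 change 1.02, SE 0.23, adjusted p = 0.013). In AT1G55290 the rsl4-1 arrays were the lowest, at 24.2 and 26.8. Acyltransferases of the BAHD family at the thalianol gene cluster, which makes root triterpenes, rose as well: AT5G47980 had signals of 329 and 343 in 35S::RSL4 roots, against 146 and 143 in Col-0 roots (log2 change 1.22, SE 0.14, adjusted p = 7e-05), and AT5G47950, named after its values were seen, was 1.54-fold higher (log2 change 0.62, adjusted p = 0.013). Berberine bridge enzyme-like oxidases oxidise sugars or alcohols, and of 9 tested 3 rose, AT5G44380, AT1G30760 and AT4G20830, and 1 fell, AT5G44400. AT5G44380 had signals of 1316 and 1460.2 in 35S::RSL4 roots, against 791 and 913 in Col-0 roots (log2 change 0.71, adjusted p = 0.0026), and AT5G44400 had 110.4 and 134 in 35S::RSL4, against 192 and 184 in Col-0 (log2 change -0.63, adjusted p = 0.017). AT1G30760 had 82.8 and 90.1 in 35S::RSL4 and 143 and 131 in rsl4-1, against 50.8 and 55.4 in Col-0 (adjusted p = 0.012 against Col-0), so it was highest in rsl4-1. With 1 array left out, calls ended without 35S::RSL4 replicate 1 for AT5G47950 and AT5G44400 (adjusted p 0.054 to 0.1), without 35S::RSL4 replicate 2 for AT1G55290, AT5G47950, AT1G30760 and AT4G20830 (adjusted p 0.055 to 0.18), without Col-0 replicate 1 for AT3G13610, AT5G47950, AT5G44380, AT5G44400, AT1G30760 and AT4G20830 (adjusted p 0.059 to 0.18) and without Col-0 replicate 2 for AT1G55290, AT5G47950, AT5G44400 and AT1G30760 (adjusted p 0.052 to 0.13). Other settings ended calls too, with no intensity trend for AT5G44400 and AT4G20830 and with no filter for AT1G55290 and AT4G20830 (adjusted p 0.054 to 0.076).

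Calls were also made among glutathione transferases, beta-glucosidases, cytochromes P450 and UDP-glycosyltransferases. Of 11 tested glutathione transferases 2 rose, GSTU25 and GSTU28, of 9 beta-glucosidases BGLU15 and BGLU16, and of 9 cytochromes P450 CYP71B23. GSTU25 had signals of 359.8 and 512 in 35S::RSL4 and 84.2 and 75.5 in rsl4-1, against 277 and 271 in Col-0. The 35S::RSL4 roots lay above rsl4-1 (log2 change 2.43, adjusted p = 4.9e-08) and above Col-0 (log2 change 0.65, adjusted p = 0.026). Of the 30 tested UDP-glycosyltransferases matched by symbol, GT72B1 rose and UGT88A1 fell, which is near the background in both directions. None of the 16 carboxypeptidase-like proteins was called, a list short enough to lack calls at background shares of 3.21% and 2.41%. GT72B1 was 1.57-fold higher (log2 change 0.65, adjusted p = 0.0082) and UGT88A1 1.58-fold lower (log2 change -0.66, adjusted p = 0.02). Calls ended without 35S::RSL4 replicate 1 for GSTU28, BGLU16 and GT72B1 (adjusted p 0.067 to 0.089), without 35S::RSL4 replicate 2 for GSTU25, GSTU28, BGLU15, BGLU16 and UGT88A1 (adjusted p 0.1 to 0.21), without Col-0 replicate 1 for GSTU25, GSTU28, BGLU15, BGLU16, CYP71B23, GT72B1 and UGT88A1 (adjusted p 0.08 to 0.31) and without Col-0 replicate 2 for GSTU25, GSTU28, BGLU15, BGLU16 and UGT88A1 (adjusted p 0.053 to 0.17). Calls also ended with no filter for GSTU25 and BGLU16 and with no intensity trend for GSTU25, GSTU28, BGLU15 and BGLU16 (adjusted p 0.065 to 0.092).

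Further large rises were genes of membrane, signalling and other proteins. AT1G18390, a receptor-like kinase gene, was called by both of its probe sets, with log2 changes of 1.25 and 0.66. On the first its signals were 62.9 and 59 in 35S::RSL4 roots, against 31.2 and 20.9 in Col-0 roots (adjusted p = 0.0031). AT4G18425, a membrane protein of the DUF679 family, had 79.3 and 97.1 in 35S::RSL4, against 35.9 and 35.3 in Col-0 (log2 change 1.30, adjusted p = 0.00029). AT1G68230, of the reticulons that shape the endoplasmic reticulum, was at least 1.52-fold higher (log2 change 1.29, adjusted p = 0.02), and AT4G37220, of the COR413 family of cold-regulated membrane proteins, was at least 2.42-fold higher. AT4G37220 passed the filter only through the 35S::RSL4 arrays and was not tested without either of them. Genes named only as related to those of late embryogenesis abundant proteins were 3 of the 30: AT3G19430, AT5G60530 and AT5G54370. AT5G54370 had 243 and 359 in 35S::RSL4 and 204 and 125 in rsl4-1, against 129 and 123 in Col-0 (log2 change 1.23, adjusted p = 0.0021). AT3G19430 was 2.36-fold higher and AT5G60530 2.35-fold higher (adjusted p = 0.00079 and 0.031). AT1G31710, a copper amine oxidase, which makes hydrogen peroxide from amines, had signals of 74.7 and 132 in 35S::RSL4 roots, against 39.1 and 51.5 in Col-0 roots (log2 change 1.15, adjusted p = 0.007). AT1G26800, a RING-type ubiquitin ligase, had 156 and 142 in 35S::RSL4, against 58.9 and 71.7 in Col-0 (log2 change 1.20, adjusted p = 0.00027). AT4G01390, of the TRAF-like family, was 2.31-fold higher (log2 change 1.21, adjusted p = 0.00013). In this group calls ended without 35S::RSL4 replicate 1 for AT1G18390 (adjusted p = 0.052), without 35S::RSL4 replicate 2 for AT1G68230, AT5G60530, AT5G54370 and AT1G31710 (adjusted p 0.059 to 0.28), without Col-0 replicate 1 for AT1G18390, AT1G68230, AT5G60530 and AT1G31710 (adjusted p 0.095 to 0.23) and without Col-0 replicate 2 for AT1G18390, AT1G68230 and AT5G60530 (adjusted p 0.06 to 0.065). Calls were also lost with no filter for AT1G68230, AT5G60530 and AT1G31710 and with no intensity trend for AT5G60530 (adjusted p 0.052 to 0.14). In AT1G18390 these ends concern the probe set with the smaller change.

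Vesicle and signalling lists had few tested members. The vesicle list names 150 loci, the calcium list 163 and the defence list 205, so most of their genes were not tested. Of 19 tested genes of vesicle trafficking 2 rose (10.5%, against 3.21% of one-gene probe sets) and 17 did not pass (median log2 change 0.083). The 2 that rose were PRA8 and PRA1.E, both prenylated Rab acceptors, which act in the secretory path. PRA8 had signals of 453 and 481 in 35S::RSL4 roots, against 268 and 276 in Col-0 roots (log2 change 0.78, adjusted p = 0.0017). PRA1.E had 222 and 190.0 in 35S::RSL4, against 146 and 123 in Col-0 (log2 change 0.61, adjusted p = 0.02). The Col-0 arrays lay below both 35S::RSL4 arrays in each. Of 5 tested genes of calmodulin-like proteins, calcium-dependent kinases and pumps, CML42 rose. CML42, a calcium sensor known from leaf hairs, had 213 and 192 in 35S::RSL4, against 135 and 148 in Col-0 (log2 change 0.52, adjusted p = 0.039), and CML38, a sensor induced by stress, was at least 1.41-fold lower, having passed the filter only through the Col-0 arrays. RALFL22, of a family of secreted peptides that raise extracellular pH and limit growth, named after its values were seen, had 913 and 1118 in 35S::RSL4, against 659.9 and 568 in Col-0 (log2 change 0.72, adjusted p = 0.0046). PDF2.1, a defensin, was the 1 of 9 pathogenesis-related and defence genes that rose (log2 change 0.58, adjusted p = 0.013). These calls ended without 35S::RSL4 replicate 1 for PRA1.E and CML42 (adjusted p 0.12 to 0.14), without 35S::RSL4 replicate 2 for CML42, RALFL22 and PDF2.1 (adjusted p 0.059 to 0.076), without rsl4-1 replicate 1 for CML42 (adjusted p = 0.054), without rsl4-1 replicate 2 for CML42 (adjusted p = 0.056), without Col-0 replicate 1 for PRA1.E, CML42 and PDF2.1 (adjusted p 0.063 to 0.29) and without Col-0 replicate 2 for PRA1.E, CML42, RALFL22 and PDF2.1 (adjusted p 0.069 to 0.18). Other settings ended calls too, with no filter for CML42, with no intensity trend for PRA1.E and CML42, with only the compared genotypes for CML42 and with the replicate block for CML42 (adjusted p 0.053 to 0.081).

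Among the largest falls were genes of rapid responses to stress. Such genes are known to be switched on within minutes of touch, wounding or other stress, and several are transcription factors. Of the 5 tested factors of that kind ORA47 passed the filter only through the Col-0 arrays. Of the other 4, STZ and WRKY53 fell, and AT2G28200 and WRKY6 did not pass (log2 changes -0.19 and 0.25). STZ, a zinc finger repressor and the annotated locus next to RSL4, had signals of 60.5 and 61.5 in 35S::RSL4 and 229 and 249 in rsl4-1, against 301 and 290.1 in Col-0, 4.85-fold lower relative to Col-0 (adjusted p = 2.1e-07). ORA47, an ethylene response factor tied to jasmonate synthesis, had 2.86 and 5.44 in 35S::RSL4 and 17.7 and 20.9 in rsl4-1, against 63 and 59.99 in Col-0, at least 3.01-fold lower relative to Col-0, and fell under the filter without either Col-0 array. WRKY53, a factor of defence and senescence, had 15.5 and 13.4 in 35S::RSL4, against 38.4 and 34.2 in Col-0, at least 1.78-fold lower (log2 change -1.33, adjusted p = 0.0047). In STZ and WRKY53 both 35S::RSL4 arrays lay below both Col-0 arrays, as in every called lower probe set. Of 7 tested touch, calcium and early stress genes, AT4G29780, AT4G27654, AT4G27657 and CML38 were put in the list because earlier results of these arrays showed them low. Their falls follow from that choice and say nothing about the list, and CML38 likewise passed the filter only through Col-0. AT4G29780, a nuclease-like protein, had signals of 17.5 and 29.2 in 35S::RSL4 roots, against 119.5 and 121 in Col-0 roots, 5.31-fold lower (adjusted p = 1.8e-05), and AT4G27654 had 5.27 and 13.1 in 35S::RSL4, against 63.2 and 70.8 in Col-0, at least 3.28-fold lower (adjusted p = 3e-05). Of the members not chosen as low, PUB23, a ubiquitin ligase that damps immune responses, fell (log2 change -0.68, adjusted p = 0.01). Its relatives PUB22 and PUB24 did not pass, with log2 changes of 0.17 and 0.02. Several of these calls ended without 35S::RSL4 replicate 2 for WRKY53 and PUB23 (adjusted p 0.0501 to 0.056), without Col-0 replicate 1 for WRKY53 and PUB23 (adjusted p 0.064 to 0.083) and without Col-0 replicate 2 for PUB23 (adjusted p = 0.11).

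Other large falls included a calcium-binding protein, lipid transfer proteins, small heat shock-like proteins and genes of unknown function. AT4G27280, a calcium-binding EF-hand protein, had signals of 222 and 173 in 35S::RSL4 roots, against 597 and 496 in Col-0 roots, 2.78-fold lower (log2 change -1.47, SE 0.15, adjusted p = 2.4e-05). AT4G27652, beside AT4G27654 and AT4G27657 on chromosome 4, had 80.8 and 95.3 in 35S::RSL4, against 192 and 186 in Col-0, 2.15-fold lower (log2 change -1.11, SE 0.15, adjusted p = 0.00027). In rsl4-1 they stood at 493 and 515 for AT4G27280 and 186 and 209.9 for AT4G27652. AT5G17350, of unknown function, had 19.2 and 18.9 in 35S::RSL4, against 69.8 and 59.6 in Col-0, at least 3.16-fold lower (adjusted p = 6.3e-05). AT5G57785, also of unknown function, had 253 and 282 in 35S::RSL4 and 398 and 392 in rsl4-1, against 667 and 606 in Col-0 (log2 change -1.25, adjusted p = 2.9e-05). AT4G12490 and AT4G12500, neighbouring genes of proline-rich lipid transfer proteins, were at least 1.13-fold lower and at least 1.61-fold lower (adjusted p = 0.017 and 0.0071). AT5G62210, of a family of embryo-specific proteins, had 43.1 and 47.9 in 35S::RSL4 and 34.8 and 40.4 in rsl4-1, against 133 and 99 in Col-0 (log2 change -1.34, adjusted p = 0.0004). AT4G21870 and AT5G47600, both of the small heat shock protein fold, were at least 1.86-fold lower and 2.25-fold lower (adjusted p = 0.0027 and 0.007). AT1G14180, a RING-type protein, was at least 1.14-fold lower (adjusted p = 0.042). Some of these calls were lost without 35S::RSL4 replicate 1 for AT1G14180, AT4G12490 and AT4G12500 (adjusted p 0.061 to 0.11), without 35S::RSL4 replicate 2 for AT5G47600, AT1G14180 and AT4G12490 (adjusted p 0.061 to 0.16), without Col-0 replicate 1 for AT5G47600 and AT4G12500 (adjusted p 0.071 to 0.11) and without Col-0 replicate 2 for AT1G14180, AT4G12490 and AT4G12500 (adjusted p 0.068 to 0.091). Calls were also lost with no filter for AT5G47600, AT1G14180, AT4G12490 and AT4G12500, with quantile normalization for AT1G14180 and with median centring for AT1G14180 (adjusted p 0.0502 to 0.15). AT4G12490 and AT1G14180 fell under the filter, and so were not tested, without rsl4-1 replicate 2 or Col-0 replicate 1.

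Several genes of photosynthesis fell in 35S::RSL4. Roots grown in light form some green plastids, and all 20 tested genes of photosynthesis and chlorophyll had log2 changes under 0 (median -0.55), against 59.4% of all tested probe sets (median -0.065), and 7 were called lower: PSBY, PORB, psbZ, PSAE-1, LHCB4.1, psbL and LHCB4.2. PSBY, a photosystem II subunit, had signals of 32.8 and 29.9 in 35S::RSL4 roots, against 73.8 and 60.2 in Col-0 roots (log2 change -1.09, SE 0.19, adjusted p = 0.0025). PORB, which reduces protochlorophyllide in the light, had 27.4 and 28.4 in 35S::RSL4, against 53.2 and 63.4 in Col-0 (log2 change -1.06, SE 0.19, adjusted p = 0.0037). PSAE-1, a photosystem I subunit, had 47.9 and 42.5 in 35S::RSL4, against 78 and 93.9 in Col-0 (log2 change -0.92, adjusted p = 0.0081). In all 3 the 35S::RSL4 arrays lay below both Col-0 arrays. LHCB4.1, an antenna protein and 1 of the 2 tested markers of shoot tissue, had 129 and 121 in 35S::RSL4 and 137 and 119.8 in rsl4-1, against 219 and 188 in Col-0 (log2 change -0.70, adjusted p = 0.0093). RCA, the other, which activates Rubisco in leaves, had 128 and 130.1 in 35S::RSL4, against 168 and 136 in Col-0 (log2 change -0.23, adjusted p = 0.39). The part of shoot tissue in the result was not tested. Among psb genes that did not pass, log2 changes were -0.83 for psbM and -0.014 for psbC. With median centring 5 of the 20 were called and the median was -0.47, and 2 were called without Col-0 replicate 1. With 1 array left out, calls ended without 35S::RSL4 replicate 1 for psbZ and LHCB4.2 (adjusted p 0.055 to 0.077), without 35S::RSL4 replicate 2 for PSAE-1, LHCB4.1, psbL and LHCB4.2 (adjusted p 0.07 to 0.21), without Col-0 replicate 1 for PSBY, psbZ, LHCB4.1, psbL and LHCB4.2 (adjusted p 0.07 to 0.25) and without Col-0 replicate 2 for PORB, PSAE-1, psbL and LHCB4.2 (adjusted p 0.062 to 0.17). Other settings ended calls too, with quantile normalization for psbL and LHCB4.2, with median centring for psbL and LHCB4.2, with no filter for psbL and LHCB4.2 and with no intensity trend for psbL (adjusted p 0.054 to 0.12).

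Other genes of plastids fell too, both in the plastid genome and in the nucleus. Of 34 tested plastid genome genes 6 fell, rpoA, rps4, psbZ, rpl33, psbL and rpl32, and 28 did not pass (median log2 change -0.37). This list overlaps that of photosynthesis and chlorophyll: psbZ and psbL were counted above as well, and uncalled genes such as psbF and psbM are in both. rpoA, a subunit of the plastid RNA polymerase, had signals of 149 and 129 in 35S::RSL4 roots, against 302 and 278 in Col-0 roots (log2 change -1.06, SE 0.15, adjusted p = 0.00037), and rps4, a plastid ribosomal protein, had 128 and 91.6 in 35S::RSL4, against 215 and 218 in Col-0 (adjusted p = 0.0017). Both rsl4-1 arrays also lay below both Col-0 arrays, at 148 and 175 for rpoA and 136 and 121 for rps4. Plastid transcripts mostly lack the poly(A) tails on which the 3' IVT labelling named in the labels is primed. Over the other settings 3 to 7 of the 34 were called lower. Of nuclear genes, HCF101, which assembles iron-sulphur clusters for photosystem I, was at least 1.58-fold lower (adjusted p = 0.022), and AT4G02530, of the thylakoid lumen, had 28.8 and 37 in 35S::RSL4, against 69.1 and 70.5 in Col-0 (log2 change -1.10, adjusted p = 0.0021). Chosen after their values were seen, PSB27, of photosystem II repair, TROL, a thylakoid rhodanese-like protein, LIL3:2, of the light-harvesting-like proteins, and AT1G74470, a geranylgeranyl reductase of chlorophyll synthesis, were lower too, with log2 changes of -1.04, -0.83, -0.68 and -0.61 (adjusted p = 0.014, 0.041, 0.036 and 0.016). Calls ended without 35S::RSL4 replicate 1 for psbZ, rpl32, HCF101, PSB27, TROL and LIL3:2 (adjusted p 0.055 to 0.13), without 35S::RSL4 replicate 2 for rpl33, psbL, rpl32, HCF101, PSB27, TROL, LIL3:2 and AT1G74470 (adjusted p 0.053 to 0.21), without rsl4-1 replicate 1 for rpl32 (adjusted p = 0.055), without rsl4-1 replicate 2 for rpl32 (adjusted p = 0.056), without Col-0 replicate 1 for psbZ, rpl33, psbL, HCF101, TROL, LIL3:2 and AT1G74470 (adjusted p 0.07 to 0.29) and without Col-0 replicate 2 for rpl33, psbL, rpl32, PSB27, TROL, LIL3:2 and AT1G74470 (adjusted p 0.062 to 0.33). Calls also ended with median centring for psbL, rpl32, TROL and LIL3:2, with no filter for rpl33, psbL, rpl32, HCF101, PSB27, TROL and LIL3:2, with no intensity trend for rpl33, psbL, rpl32, TROL and LIL3:2, with only the compared genotypes for rpl32 and with quantile normalization for psbL, TROL and LIL3:2 (adjusted p 0.054 to 0.13).

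A few genes of ribosomal proteins and RNA polymerase subunits fell, and most did not pass. Of 117 tested genes of cytosolic ribosomal proteins 5 fell and 112 did not pass: AT4G39200, AT3G06700, AT5G60670, AT3G53740 and AT3G02190. That is 4.27% of the list, against 2.41% of one-gene probe sets. Log2 changes were under 0 for 105 of the 117 (89.7%), against 59.4% of all tested probe sets, with a median of -0.19, or -0.12 with median centring. AT4G39200, a protein of the small subunit, had signals of 1511 and 1114 in 35S::RSL4 and 1307 and 1369 in rsl4-1, against 2559 and 2153 in Col-0, 1.81-fold lower relative to Col-0 (log2 change -0.86, SE 0.14, adjusted p = 0.0017). AT3G06700, of the large subunit, had 1049 and 1075 in 35S::RSL4, against 1598 and 1472 in Col-0 (log2 change -0.53, adjusted p = 0.013). Of 10 tested subunits of nuclear RNA polymerases 3 fell, NRPB12, NRPA2 and NRPC2 (median log2 change -0.43). NRPB12, which is shared between the polymerases, had 208 and 194 in 35S::RSL4, against 327 and 294 in Col-0 (log2 change -0.63, adjusted p = 0.011). NRPA2, of polymerase I, had 90.5 and 93.3 in 35S::RSL4, against 138 and 132 in Col-0 (log2 change -0.56, adjusted p = 0.031). With median centring 3 ribosomal genes and 1 polymerase subunit were called, and over the other settings 1 to 13 ribosomal genes and 0 to 3 subunits. In this group calls ended without 35S::RSL4 replicate 1 for AT3G06700, AT5G60670, AT3G53740, AT3G02190 and NRPA2 (adjusted p 0.065 to 0.11), without 35S::RSL4 replicate 2 for AT3G06700, AT5G60670, AT3G53740, AT3G02190, NRPB12, NRPA2 and NRPC2 (adjusted p 0.064 to 0.28), without rsl4-1 replicate 1 for AT3G02190 and NRPC2 (adjusted p 0.052 to 0.059), without rsl4-1 replicate 2 for AT3G02190 and NRPC2 (adjusted p 0.053 to 0.061), without Col-0 replicate 1 for AT3G06700, AT5G60670, AT3G53740, AT3G02190, NRPB12, NRPA2 and NRPC2 (adjusted p 0.15 to 0.33) and without Col-0 replicate 2 for AT3G02190, NRPA2 and NRPC2 (adjusted p 0.12 to 0.21). Calls were also lost with no filter for AT3G06700, AT5G60670, AT3G53740, AT3G02190, NRPA2 and NRPC2, with no intensity trend for AT3G06700, AT5G60670, AT3G53740, AT3G02190, NRPA2 and NRPC2, with quantile normalization for NRPC2, with median centring for AT3G53740, AT3G02190, NRPA2 and NRPC2, with only the compared genotypes for AT3G02190 and NRPC2 and with the replicate block for AT3G02190 and NRPC2 (adjusted p 0.051 to 0.14).

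Few transcription factors were matched by symbol, and most of their calls were falls. Only 1 probe set was matched for 133 MYB loci and 1 for 92 NAC loci. Of 35 tested factors in 8 families, ORA47 passed the filter only through Col-0. Of the other 34 NAI1 was higher and 4 were lower, STZ, WRKY53, LHW and JKD (median log2 change -0.03). Among all one-gene probe sets 2.41% were lower and 3.21% higher. In the bZIP family none of 11 was called. NAI1, a bHLH factor needed for endoplasmic reticulum bodies, rose, with signals of 235 and 150.4 in 35S::RSL4 roots, against 116 and 110.2 in Col-0 roots (log2 change 0.73, adjusted p = 0.048). LHW, a bHLH factor of vascular development, fell, with 78 and 89.9 in 35S::RSL4, against 152 and 147 in Col-0 (log2 change -0.84, adjusted p = 0.018). JKD, a zinc finger protein that acts on root tissue and hair cell patterning, had 26.3 and 24.9 in 35S::RSL4, against 49.2 and 49.7 in Col-0 (log2 change -0.95, adjusted p = 0.0072). AT1G77640, of the ethylene response factor family, was at least 1.38-fold lower (adjusted p = 0.013). No call was made among 7 tubulin, 7 histone, 11 thioredoxin and glutaredoxin genes, 5 genes of auxin or 5 of abscisic acid and dehydration. With 3.21% higher and 2.41% lower among one-gene probe sets, lists this short, bZIP included, can lack calls at the background shares. The auxin list names 177 loci and the abscisic acid list 99, so most of their genes were not tested. These calls ended without 35S::RSL4 replicate 1 for NAI1 and LHW (adjusted p 0.12 to 0.32), without 35S::RSL4 replicate 2 for WRKY53, LHW, JKD and AT1G77640 (adjusted p 0.0501 to 0.1), without Col-0 replicate 1 for NAI1, WRKY53, LHW, JKD and AT1G77640 (adjusted p 0.076 to 0.19) and without Col-0 replicate 2 for NAI1, LHW, JKD and AT1G77640 (adjusted p 0.064 to 0.18). Other settings ended calls too, with no filter for NAI1, LHW and AT1G77640 and with no intensity trend for NAI1 and LHW (adjusted p 0.07 to 0.14).

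Some called genes lay close to each other on the chromosomes. Of 244 nuclear loci called higher, 22 (9.02%) had another higher locus within 3 annotated loci, against 4.41% of all 7574 tested loci. Of 179 called lower, 16 (8.94%) had a lower neighbour, against 3.58%. The higher neighbours included the 3 lectins AT1G52050, AT1G52060 and AT1G52070, the carriers AT3G45700 and AT3G45710, and the acyltransferases AT5G47950 and AT5G47980, so several neighbours belong to 1 family. The lower ones included AT4G27652, AT4G27654 and AT4G27657. Tandem copies can share probe signal, and these shares are descriptions with no test.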

How the data were processed

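Affymetrix ATH1 arrays were hybridised with biotin-labelled RNA of Arabidopsis thaliana roots, 2 each of 35S::RSL4, rsl4-1 and Col-0. Values are MAS5 signal intensity on a linear scale, 1 per probe set and array, as deposited by the authors. Per the submitters' processing notes MAS5 and GCOS were used, and their versions are not given in the sources used here. Genotypes came from titles.

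AFFX control probe sets were left out, and signals were log2-transformed without further scaling. Probe sets had to exceed the 40th percentile of an array on 2 or more arrays, and 14170 passed. A linear model over all 6 arrays was fitted with limma 3.58.1 in R 4.3.3, with an intensity trend in eBayes, and p-values were adjusted by Benjamini-Hochberg over all tested probe sets. Called means an adjusted p under 0.05. The fit had 3 residual degrees of freedom, and the number of arrays limits the precision. On simulated data of 14170 probe sets with 200 changed, it called 82% of the 2-fold and 100% of the 4-fold changes. False calls were 3.7%. No smaller changes were simulated, whereas 380 higher and 311 lower calls here were below 2-fold, so these rates do not describe them. A fold is a ratio of geometric means. Where both arrays of 1 genotype were at or under their 40th percentile, the fold is given as at least that against this percentile.

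Probe sets were named through GEO's platform annotation and RefSeq TAIR10.1 names: 13513 had 1 gene, 503 several and 8730 were unlisted, and none was named from several. Families of genes known only by locus come from background knowledge of the locus. Genes named are the 30 largest rises and falls called, with 1 gene, arrays not overlapping and outside the wall and peroxidase lists, then up to 4 called members of each list by adjusted p, and marker genes. Members and lists were chosen with earlier results of these data known. Of 84 lists besides those of wall genes and peroxidases, 66 had a tested member and 19 were added after values were seen. Alternatives were quantile normalization, median centring, other filters, an offset, no trend, the compared genotypes alone, the replicate number as a block, a threshold of 0.1 and leaving out each array. Ranges of list counts over the other settings leave out the threshold of 0.1. Promoter motifs were not analysed here.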

Additional observations from a re-analysis of the deposited data

How the results depend on the processing

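The count of 480 higher probe sets became 230 with no filter, 282 with no intensity trend and 769 at a threshold of 0.1, and lay between 126 and 423 when 1 array was left out. The count of 408 lower ones became 261 with median centring, 174 with no filter and 843 at a threshold of 0.1, and lay between 86 and 339 when 1 array was left out. Without a filter more probe sets are tested, and without an array fewer arrays. Both counts moved by less than 1.5 times with quantile normalization, a filter on mean signal, an offset and the compared genotypes alone. With the replicate number as a block, 444 were higher and 358 lower. The numbers do not pair the samples: deviations of same-numbered arrays correlated at -0.085 between 35S::RSL4 and rsl4-1, 0.12 between 35S::RSL4 and Col-0 and -0.19 between rsl4-1 and Col-0. Of 124 genes chosen by the naming rule, 33 kept their call in every setting and none changed direction. Over genes and settings, 1498 of 1818 comparisons kept the call and 320 lost it. Of the 124, 18 fell under a filter in at least 1 setting and were not tested there. Arrays of called genes did not overlap, so leaving out 1 array could not reverse a direction. A change of filter, trend or threshold leaves the log2 change as it was. At the threshold of 0.1 none of the 124 could lose its call. Signals near background limit what can be said of falling genes such as ORA47, which are given as bounds.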

Other observations

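Some called genes outside the lists, all chosen after their values were seen, are given here with log2 changes of 35S::RSL4 minus Col-0. Genes of 2 chaperones of the endoplasmic reticulum, the calreticulin CRT1b and the co-chaperone ATERDJ3B, were higher in 35S::RSL4. CRT1b had signals of 857 and 799.8 in 35S::RSL4 and 740.3 and 891 in rsl4-1, against 612 and 561 in Col-0 (log2 change 0.50, adjusted p = 0.03). ATERDJ3B had 377 and 384 in 35S::RSL4 and 354 and 382 in rsl4-1, against 279 and 257 in Col-0 (log2 change 0.51, adjusted p = 0.027). In both genes the rsl4-1 arrays lay above Col-0 as well. PLIM2b, which bundles actin filaments, had 266 and 271 in 35S::RSL4 and 133 and 135 in rsl4-1, against 203 and 178 in Col-0 (log2 change 0.50, adjusted p = 0.041). ATG8H, of autophagosome formation, had 265 and 404 in 35S::RSL4, against 196 and 225 in Col-0 (log2 change 0.64, adjusted p = 0.038). The rsl4-1 arrays of PLIM2b lay below both other genotypes. IVD, which breaks down branched-chain amino acids in mitochondria, had 338 and 237 in 35S::RSL4, against 200.01 and 171 in Col-0 (log2 change 0.61, adjusted p = 0.041). Several of these calls ended without 35S::RSL4 replicate 1 for CRT1b, ATERDJ3B, PLIM2b and IVD (adjusted p 0.072 to 0.25), without 35S::RSL4 replicate 2 for CRT1b, ATERDJ3B, PLIM2b and ATG8H (adjusted p 0.083 to 0.28), without rsl4-1 replicate 1 for PLIM2b, ATG8H and IVD (adjusted p 0.057 to 0.059), without rsl4-1 replicate 2 for PLIM2b, ATG8H and IVD (adjusted p 0.057 to 0.06), without Col-0 replicate 1 for CRT1b, ATERDJ3B, PLIM2b, ATG8H and IVD (adjusted p 0.11 to 0.28) and without Col-0 replicate 2 for CRT1b, ATERDJ3B, PLIM2b, ATG8H and IVD (adjusted p 0.084 to 0.26). Calls also ended with no intensity trend for CRT1b, ATERDJ3B, PLIM2b, ATG8H and IVD, with no filter for CRT1b, PLIM2b, ATG8H and IVD, with only the compared genotypes for PLIM2b, ATG8H and IVD, with the replicate block for PLIM2b and with quantile normalization for CRT1b (adjusted p 0.054 to 0.11).

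The SPIRAL1-LIKE genes, whose proteins act on cortical microtubules, moved in both directions. SP1L4 had signals of 254 and 247 in 35S::RSL4 roots, against 170.3 and 176 in Col-0 roots (log2 change 0.53, adjusted p = 0.031). SP1L2 had 51.2 and 54.7 in 35S::RSL4, against 101 and 102 in Col-0 (log2 change -0.94, adjusted p = 0.0017). In rsl4-1 SP1L4 stood at 88.4 and 93.5 and SP1L2 at 82.2 and 90.8. AT4G31250, a receptor-like kinase gene, had 131 and 155 in 35S::RSL4 and 56.2 and 53.8 in rsl4-1, against 73.2 and 68.9 in Col-0 (log2 change 1.01, adjusted p = 0.0011). EXO, a gene of the cell expansion response to brassinosteroid, had 90.8 and 107 in 35S::RSL4, against 174 and 146 in Col-0 (log2 change -0.70, adjusted p = 0.012). Some of these calls were lost without 35S::RSL4 replicate 1 for SP1L4 and EXO (adjusted p 0.08 to 0.096), without 35S::RSL4 replicate 2 for SP1L4 (adjusted p = 0.091), without Col-0 replicate 1 for SP1L4 and EXO (adjusted p 0.18 to 0.22) and without Col-0 replicate 2 for SP1L4 (adjusted p = 0.13). Calls were also lost with no intensity trend for SP1L4 (adjusted p = 0.066).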
